A study of Saccharomyces cerevisiae with 2 samples.

Results

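The genes described here were 5 mitogen-activated protein (MAP) kinase genes of budding yeast and KDX1, 6 genes in all, taken by their systematic names from the 6207 gene features of the deposited table. They were FUS3 (YBL016W), KSS1 (YGR040W), SLT2 (YHR030C), HOG1 (YLR113W), SMK1 (YPR054W) and KDX1 (YKL161C), on chromosomes II, VII, VIII, XII, XVI and XI of Saccharomyces cerevisiae in that order. Each had 1 feature on the array. A value was present for 5 of them in the first comparison and for 6 in the second, SMK1 being the gene without a value in the first.

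The first comparison set an msg5 deletion strain, untreated, against untreated wild type of the laboratory strain BY4741, a haploid of mating type a. The second set the msg5 deletion strain with alpha factor, the mating pheromone sensed by a cells, against the same deletion strain without it, so both of its cultures lacked MSG5. All cultures were in YPD, a rich medium, at 24 °C and 200 rpm, after dilution to an optical density of 0.2. Cells of the first comparison were grown for 2 h 30 min and then for 2 h before collection, and those of the second for 4 h and then for 90 min, with alpha factor at what the labels write as 50 mM. Each comparison came from 4 two-colour arrays of 2 biological samples with the dyes swapped, which the authors condensed into 1 log ratio per feature. No replicate values were used here, so no difference below was tested, and the values show no spread between cultures. The labels name BY4741 for the wild type, and whether the deletion strain differs from it in anything but MSG5 is not stated there.

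MAP kinases are the last step of a relay in which a MAP kinase kinase kinase (MAPKKK) activates a MAP kinase kinase (MAPKK), which phosphorylates a threonine and a tyrosine of the MAP kinase. Fus3 drives mating and Kss1 filamentous growth, and both are reached through Ste11 and Ste7. Slt2, also called Mpk1, serves cell wall integrity below Bck1, Mkk1 and Mkk2, Hog1 serves adaptation to high osmolarity below Ssk2, Ssk22, Ste11 and Pbs2, and Smk1 acts in spore wall formation in sporulating diploids. Kdx1, also called Mlp1, is a relative of Slt2 whose gene is induced through Slt2 and the transcription factor Rlm1. MSG5 encodes a dual-specificity phosphatase that removes phosphates from Fus3 and Slt2. The arrays measured transcripts, so nothing here bears on the phosphorylation or activity of these kinases.

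Across all genes the log2 ratios had a median of -0.07 in the msg5 deletion against wild type (4969 genes) and -0.05 with alpha factor (4597 genes). From the 5th to the 95th percentile they ran from -0.49 to 0.41 and from -0.51 to 0.36. Features of the same gene had a standard deviation of 0.22 in the first comparison (25 genes) and 0.26 in the second (24 genes). This measure of error does not cover the difference between cultures. The control features also carried ratios, 3XSSC -0.01 and Arabidopsis 0.19 in the first comparison, and 0.22 and 0.12 in the second. MSG5 itself stood at -2.51 in the deletion against wild type, the lowest of all genes, and at -0.09 with alpha factor, where it checks nothing. The alpha factor values are likely treated over untreated: the treated culture is the second channel, as the deletion was in the first comparison, and 9 of 9 genes that pheromone is known to induce, none of them a kinase gene described here, had positive values. Those 9 genes lay above 0 in the deletion against wild type as well, and they were chosen with earlier results of these data known. Of the 22 measured mating genes described below, 20 lay above 0 with alpha factor as deposited, and PRM2 was lowest at -0.73. The labels do not state the direction of the alpha factor ratios, and every sign of that comparison turns with it. Folds for alpha factor also hold only if those values are base 2 logarithms, as those of the first comparison were by their rounding.

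In the msg5 deletion against wild type, SLT2 was 2.67-fold higher and KDX1 2.15-fold higher. A change of at least 2-fold was taken as the threshold, and these 2 genes were the members past it, of 5 measured. Over all measured genes 1.05% were 2-fold or more from equal in either direction, 0.785% higher and 0.262% lower. KSS1 lay on the other side, with a log2 ratio of -0.73, and brought the members past 1.5-fold to 3 of 5, where 5.92% of all genes were. FUS3, at 0.38, had 286 genes above it and lay just below the 95th percentile of all genes (0.41). HOG1 at -0.02 was near the middle. With alpha factor in the deletion strain, none of the 6 members reached 2-fold, where 0.631% of all genes did (0.37% higher and 0.261% lower). With such low shares over all genes, a count of none past 2-fold in a short list here or below is no result about that list. None reached 1.5-fold either, where 4.61% of all genes did (1.46% higher and 3.15% lower). A count of none past 1.5-fold in a short list is no result about that list either. Read as natural logarithms, the values of 2 members, SLT2 (0.70 in log2) and FUS3 (0.60), would pass 1.5-fold, and the counts of list genes at 1.5-fold with alpha factor given below likewise hold for base 2. As deposited, the members' log2 ratios ran from -0.31 for KSS1 to 0.48 for SLT2.

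**Figure D1:**
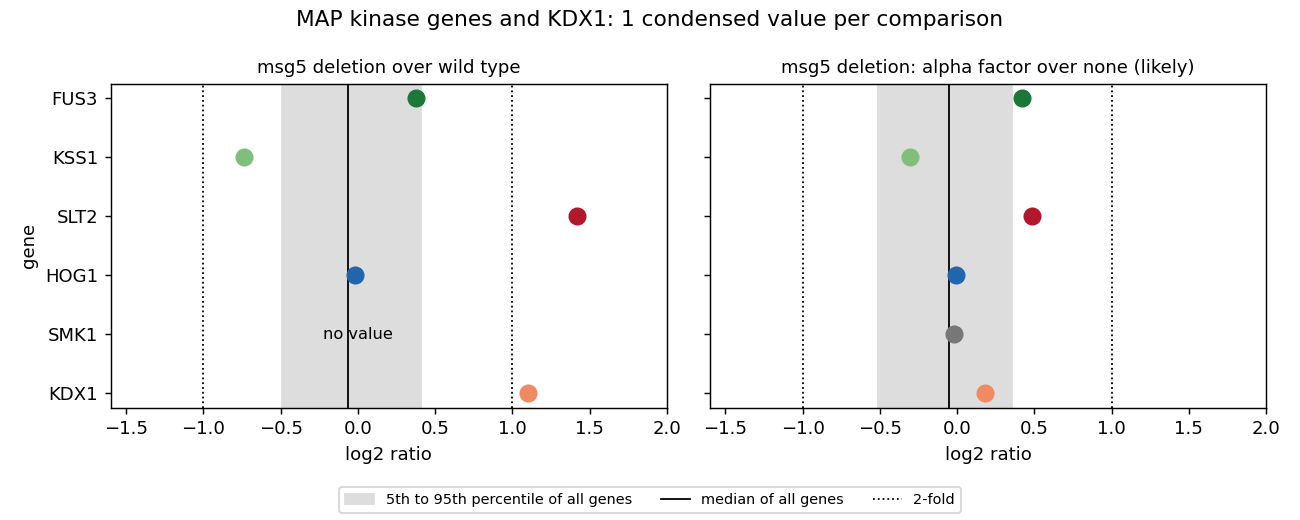
Log2 ratios (x axes) of the 6 genes in the msg5 deletion over wild type (left) and in the deletion strain with alpha factor over none (right), with 1 condensed value per gene and comparison and no error bars. SLT2 (1.42) and KDX1 (1.10) lie beyond the 2-fold line on the left, and no gene does on the right.

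SLT2 was the highest and KSS1 the lowest member in both comparisons if the alpha factor ratios run as likely, and with their sign turned SLT2 would be the lowest there (-0.48) and KSS1 the highest (0.31). In the deletion against wild type it ran SLT2 (1.42), KDX1 (1.10), FUS3 (0.38), HOG1 (-0.02) and KSS1 (-0.73). With alpha factor it ran SLT2 (0.48), FUS3 (0.42), KDX1 (0.18), HOG1 (-0.01), SMK1 (-0.02) and KSS1 (-0.31). Neighbours in the first order lay 0.32 apart for SLT2 and KDX1 and 0.72 apart for KDX1 and FUS3. FUS3 and HOG1 lay 0.40 apart, and HOG1 and KSS1 0.71. The range between features of 1 gene had a median of 0.20 in that comparison but reached 0.61. The order of SLT2 and KDX1, and that of FUS3 and HOG1, are therefore not secure. In the second order SLT2 and FUS3 were 0.07 apart, FUS3 and KDX1 0.23, KDX1 and HOG1 0.19 and HOG1 and SMK1 0.01. All were less than the standard deviation of 0.26 between features of 1 gene, so the order of these neighbours carries no weight. SMK1 and KSS1 were 0.29 apart. The median range between features of 1 gene there was also 0.29, so the lowest place of KSS1 with alpha factor carries no weight either. The 2 comparisons both hold untreated deletion cells, on top of the first ratio and below the second, though by the labels from cultures of different age, and no relation between them is given.

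The wall kinase SLT2 had 12 genes above it among 4969 in the deletion against wild type, and 116 above it among 4597 with alpha factor, where its value of 0.48 is 1.40-fold. Among the 4378 genes with both values, 7 others were at least as high as SLT2 in both, and 4 with the alpha factor sign turned. KDX1, the gene of its relative, had 28 genes above it in the deletion and 672 with alpha factor, where its value of 0.18 lay inside the range of most genes. For 14 other genes both values were at least as high as those of KDX1, and for 11 with that sign turned. Both genes therefore stood farther from the median in the deletion than with alpha factor. The deletion value exceeded the alpha factor value by 0.94 for SLT2 and by 0.92 for KDX1.

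The kinases above SLT2 did not share its value. BCK1, the MAPKKK of the wall pathway, had a log2 ratio of -0.24 in the deletion against wild type and 0.04 with alpha factor. MKK2, 1 of the 2 MAPKKs, stood at -0.24 and 0.47. MKK1, the other, had no value in the deletion and -0.56 with alpha factor, so that this pair of MAPKK genes lay on opposite sides of the median there. PKC1, the protein kinase C that activates Bck1, stood at 0.10 and -0.03. Of 20 wall cascade components, from sensors to transcription factors, 16 were measured in the deletion and none reached 2-fold. Their median was 0.05 against -0.07 for all genes, and 5 were at least 1.5-fold higher, where 2.84% of all genes were. Those 5 were the guanine nucleotide exchange factor gene TUS1 (0.80), RLM1 (0.79), the sensor genes MTL1 (0.76) and MID2 (0.62), and LRG1 (0.75), of a GTPase-activating protein of Rho1. With alpha factor 15 were measured, and the median was -0.00 against -0.05 for all genes. None reached 1.5-fold in either direction, where 4.61% of all genes did, so this count is no result about the list. The farthest there were SAC7 (-0.57), another GTPase-activating protein gene, and the sensor gene WSC2 (-0.56).

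**Figure D2:**
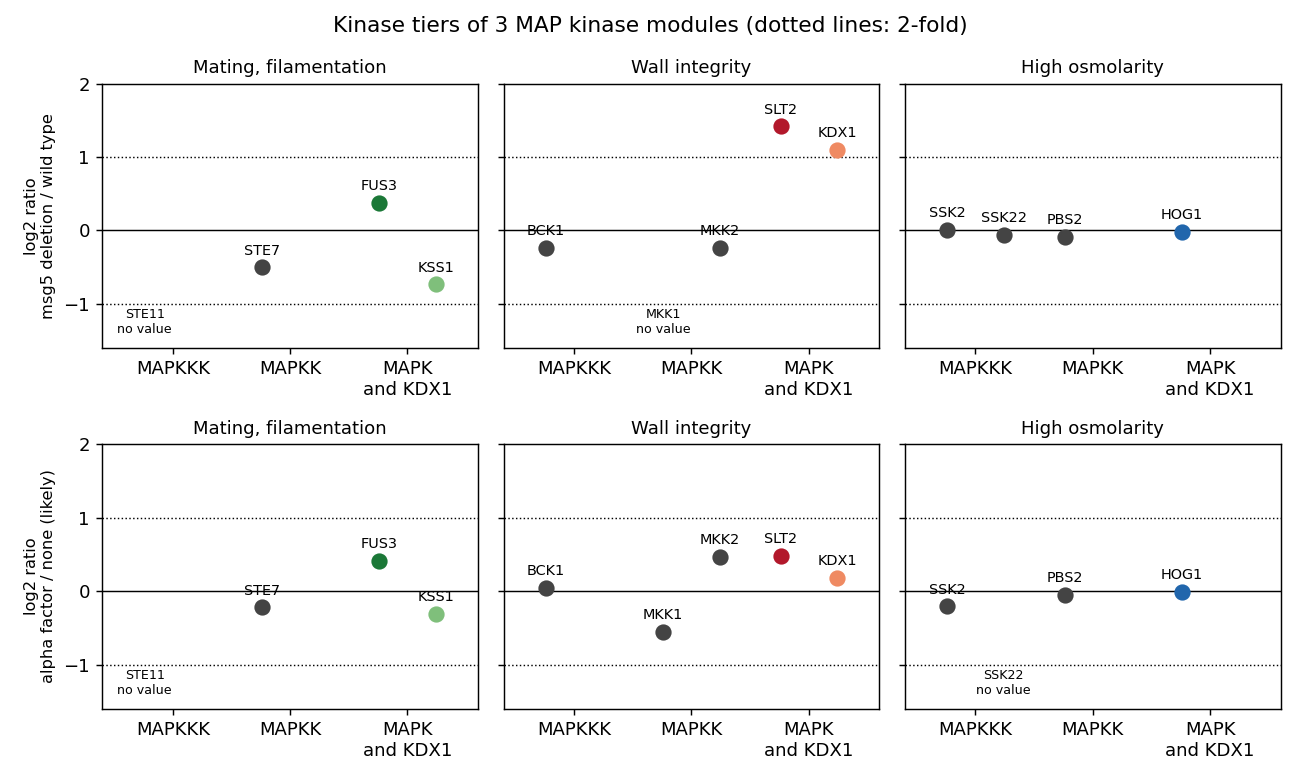
Log2 ratios (y axes) of the MAPKKK, MAPKK and MAP kinase genes of 3 pathways, with the msg5 deletion over wild type in the upper row and alpha factor over none in the lower row; each point is 1 gene. STE11 sends signals into the high osmolarity pathway too but is drawn once, and in the upper row SLT2 and KDX1 lie above 1 while BCK1 and MKK2 lie at -0.24.

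Genes that wall stress is known to induce lay high beside SLT2 and KDX1 in the deletion. This list was chosen with earlier results of these data known, so it is no independent check. Of 25 measured, 5 were 2-fold or more higher, none was 2-fold lower, 24 lay above the median of all genes, and their own median was 0.59. The 5 were PRM5, which was 2.83-fold higher, and, by log2 ratio, CRG1 (1.35), NCW2 (1.19), SPI1 (1.16) and YPS3 (1.10), of which PRM5 encodes a membrane protein that pheromone and wall stress both induce and YPS3 a wall-associated yapsin protease. SLT2 lay above 24 of the 25, PRM5 being the exception, and KDX1 above 21. RLM1 and the MAP kinase phosphatase gene PTP2 (0.90) are on that list, and RLM1 and MTL1 are on the cascade list too. With alpha factor the same list had a median of 0.04 against -0.05 for all genes, with PRM5 (1.02) at 2-fold, and YPS1, another yapsin gene, lowest at -0.95. SLT2, at 0.48, lay above 22 of the 25 there and KDX1, at 0.18, above 16.

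FUS3, the mating MAP kinase gene, had a log2 ratio of 0.38 in the deletion against wild type (1.30-fold) and 0.42 with alpha factor (1.34-fold). In the deletion 5.76% of genes were higher and with alpha factor 3.68%. Its values in the 2 comparisons differed by -0.04, the deletion value less that with alpha factor, which is below the difference between features of 1 gene. There were 38 other genes with both values at least as high, and 207 with the alpha factor sign turned. KSS1, the filamentation MAP kinase gene, had -0.73 in the deletion, which is 1.66-fold lower, and -0.31 with alpha factor, 1.24-fold lower. After subtraction of the running median of nearby rows of the table, KSS1 was at -0.62 in the deletion and -0.18 with alpha factor. The deletion value then lay close to the 1.5-fold limit, which is 0.58 in log2. KSS1 was among the lowest genes in the deletion, with 66 of 4969 below it, and with alpha factor 645 of 4597 were below it. In both values together, 10 other genes were at least as low, and 28 with the alpha factor sign turned. Over all genes 3.08% were at least 1.5-fold lower in the deletion. FUS3 exceeded KSS1 by 1.11 in the deletion and by 0.73 with alpha factor, on the log2 scale.

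STE7, the MAPKK gene that serves both FUS3 and KSS1, stood at -0.50 in the deletion and -0.22 with alpha factor, on the side of KSS1. The MAPKKK gene STE11 had no value in either comparison. STE5, of the scaffold that holds Fus3 with Ste7 and Ste11, had no value in the deletion and -0.63 with alpha factor, while GPA1, of the G protein alpha subunit, had 0.03 and 0.58. STE12, of the transcription factor that both kinases control, stood at -0.26 and -0.12. Of 19 components of the mating and filamentation cascade, 17 were measured in each comparison and none reached 2-fold in either. Their medians were 0.04 against -0.07 for all genes in the deletion, and 0.06 against -0.05 with alpha factor.

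Lists of mating genes and of filamentation genes were set beside FUS3 and KSS1, and control of these genes by either kinase was not tested. Of 22 measured mating genes, 9 were 2-fold or more higher and 2 were 2-fold or more lower in the deletion, with a median of 0.66. With alpha factor 8 of 22 were 2-fold or more higher, none was 2-fold lower, and the median was 0.70. FIG1, of calcium uptake in mating cells, was the highest in both, at 3.33 and 2.38. The 2 lower genes in the deletion were KAR3 (-1.37), a kinesin gene, and PRM10 (-1.16). The list holds the genes used to check the direction with alpha factor. FUS3 was thus below the median of these genes in both comparisons. Of 8 filamentation genes, 6 were measured, and FLO11 and PGU1 had no value in either comparison. The medians of the 6 were -0.06 and 0.09. None reached 1.5-fold, where 5.92% of all genes did in the deletion and 4.61% with alpha factor. In so short a list this count is no result about the filamentation genes. TEC1, of the transcription factor that acts with Ste12 in filamentation, had 0.16 and 0.08. In the deletion KSS1 lay below all 6, the lowest being DDR48 at -0.37. With alpha factor it lay above DDR48 (-0.43) and PHD1 (-0.51), a transcription factor gene of filamentation.

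**Figure D3:**
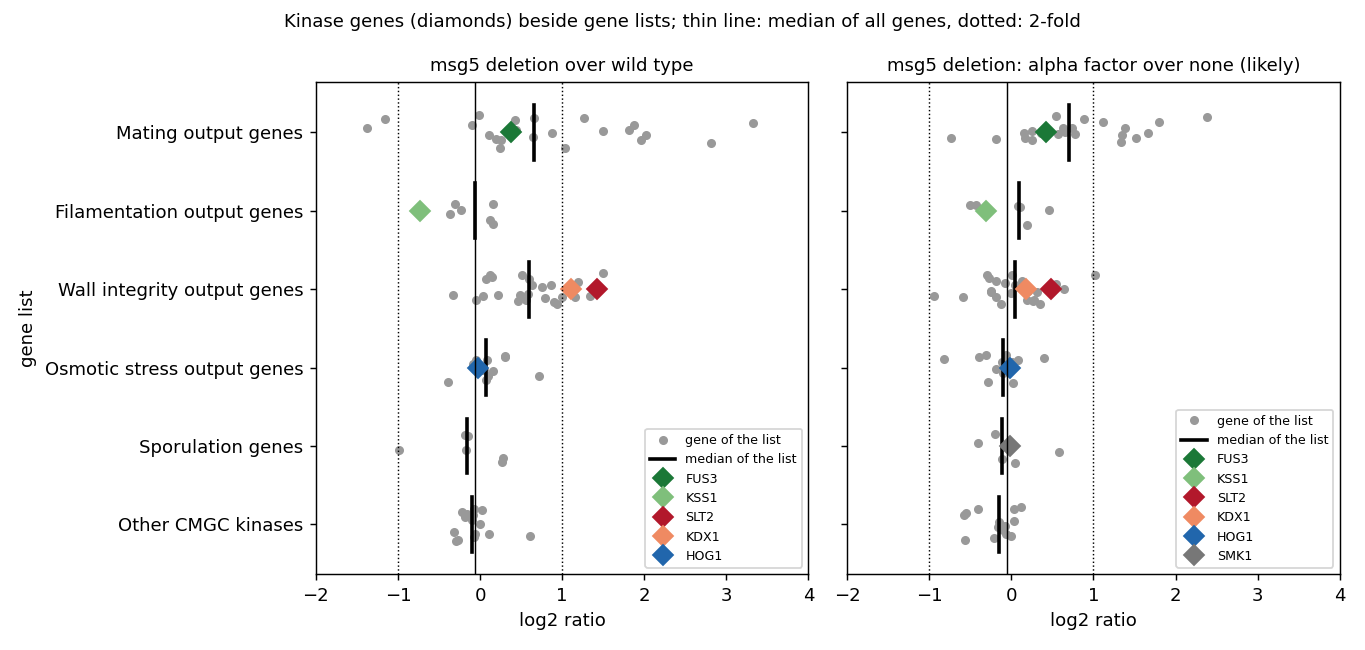
Log2 ratios (x axes) of 6 gene lists, with grey points for genes, thick bars for list medians and diamonds for the MAP kinase genes and KDX1 placed on the list of their pathway. In the msg5 deletion over wild type (left) KSS1 lies at -0.73, below the filamentation genes, and SLT2 and KDX1 lie near the upper end of the wall genes; with alpha factor over none (right) SLT2 is at 0.48.

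HOG1, the osmolarity MAP kinase gene, was near the middle of all genes, with -0.02 in the deletion and -0.01 with alpha factor. There were 2038 genes above it among 4969 and 1961 among 4597. Its MAPKK gene PBS2 stood at -0.08 and -0.05, and its MAPKKK gene SSK2 at 0.01 and -0.21, while SSK22 had -0.06 in the deletion and no value with alpha factor. Of 17 high osmolarity components, 15 were measured in the deletion and 14 with alpha factor, and none reached 2-fold. Their medians were -0.06 and 0.02. With alpha factor HKR1, of a membrane mucin that feeds the pathway, was at 0.71 and OPY2, of a membrane anchor, at -0.49. Osmotic stress genes had medians of 0.08 and -0.10 over 12 and 13 measured genes, and none reached 2-fold. GCY1, of a glycerol dehydrogenase, was the highest in both, at 0.72 and 0.40, and GRE2, of a reductase, the lowest with alpha factor at -0.82.

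SMK1, the sporulation MAP kinase gene, had no value in the deletion against wild type and -0.02 with alpha factor, where 2017 of 4597 genes lay above it. Most sporulation genes had no value either: 19 of 25 in the deletion and 20 of 25 with alpha factor, where 14.5% and 21.4% of all gene features had none. What led the authors to leave a value out is not given in the sources used here. Of the measured sporulation genes none reached 2-fold. OSW2, of spore wall assembly, was lowest in the deletion at -0.99, and IME1, of the regulator that starts meiosis, stood at -0.15 and -0.40. DMC1, of a meiotic recombinase, had 0.28 and 0.58. Markers of alpha cells and diploids were measured for 5 of 8 genes in each comparison. SAG1, of alpha-agglutinin, was 2.25-fold higher in the deletion and at 0.34 with alpha factor. MF(ALPHA)2 stood at 0.42 and 0.37, and HMLALPHA2 at -0.02 and -0.10. STE3, the a-factor receptor gene that defines alpha cells, MF(ALPHA)1 and HMLALPHA1 had no value. The medians of these markers were 0.28 and 0.34, and their part in the values of the kinase genes was not tested. Of 6 a-cell markers, STE2, the alpha factor receptor gene, had 0.11 and 0.25, BAR1 0.65 and 0.55, MFA1 1.03 and 1.34, MFA2 -0.10 and 0.74, ASG7 1.87 and 1.80, and AGA2 1.26 and 1.35. Ratios do not give the level of a marker in either RNA.

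The kinases nearest to MAP kinases in family, the other members of the CMGC group such as cyclin-dependent kinases and casein kinase 2, showed how far from 0 such genes lay. Of 16 measured in the deletion, none reached 2-fold, where 1.05% of all genes did, and their median was -0.09. They ran from -0.31 for CKA1, of a casein kinase 2 subunit, to 0.61 for YAK1, a kinase gene of growth control. SLT2 and KDX1 lay above all 16, KSS1 lay below all 16, and FUS3 lay above 15. With alpha factor 15 were measured, with a median of -0.15, from -0.58 for KNS1 to 0.12 for YGK3. RIM11, of a glycogen synthase kinase 3 relative, was also low at -0.56. SLT2, FUS3 and KDX1 lay above all 15 there, and KSS1 lay above 4. No test stands behind these orders.

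The phosphatases that act on MAP kinases were measured in full, 8 genes in each comparison. Apart from the deleted MSG5, none reached 2-fold. In the deletion PTP2, of a tyrosine phosphatase of Hog1 and Slt2, stood at 0.90, and SDP1, of a dual-specificity phosphatase of Slt2, at 0.20. PTP3, of a tyrosine phosphatase of Fus3 and Hog1, stood at -0.17. The protein phosphatase 2C genes PTC1, PTC2, PTC3 and PTC4 ranged from -0.20 for PTC2 to 0.15 for PTC1. With alpha factor PTP2 had -0.25, PTP3 0.10 and SDP1 -0.03, and PTC2, the lowest, had -0.48. PTP2 was thus above 0 with SLT2 and KDX1 in the deletion. With alpha factor PTP2 (-0.25) and KDX1 (0.18) were nearer to 0 than the standard deviation of 0.26 between features of 1 gene. Their sides of 0 there carry no weight.

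Likeness to each member was measured as the distance between log2 ratios in the plane of the 2 comparisons, over 4378 genes, and the 3 nearest genes were named. No gene lay within 0.1 of SLT2. Its nearest were YCL049C (1.35 and 0.39), MUP3 (1.26 and 0.43), of an amino acid permease, and CRG1 (1.35 and 0.65), at distances of 0.11, 0.16 and 0.18. Within 0.1 of KDX1 were 3 genes, SPI1 (1.16 and 0.13), NCW2 (1.19 and 0.19) and SSE2 (1.12 and 0.09), of which SPI1 and NCW2 are on the wall list and SSE2 encodes a chaperone. For FUS3 the nearest were GLC3, MDS3 and UBP2, and for KSS1 EKI1, MDM12 and GEP5, with 11 and 10 genes within 0.1. HOG1 had 482 genes within 0.1, with SCP160, MDY2 and MRPS9 nearest, so its pattern is that of a typical gene. With 2 values per gene such likeness is weak, and nothing on shared function or control is read from it.

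**Figure D4:**
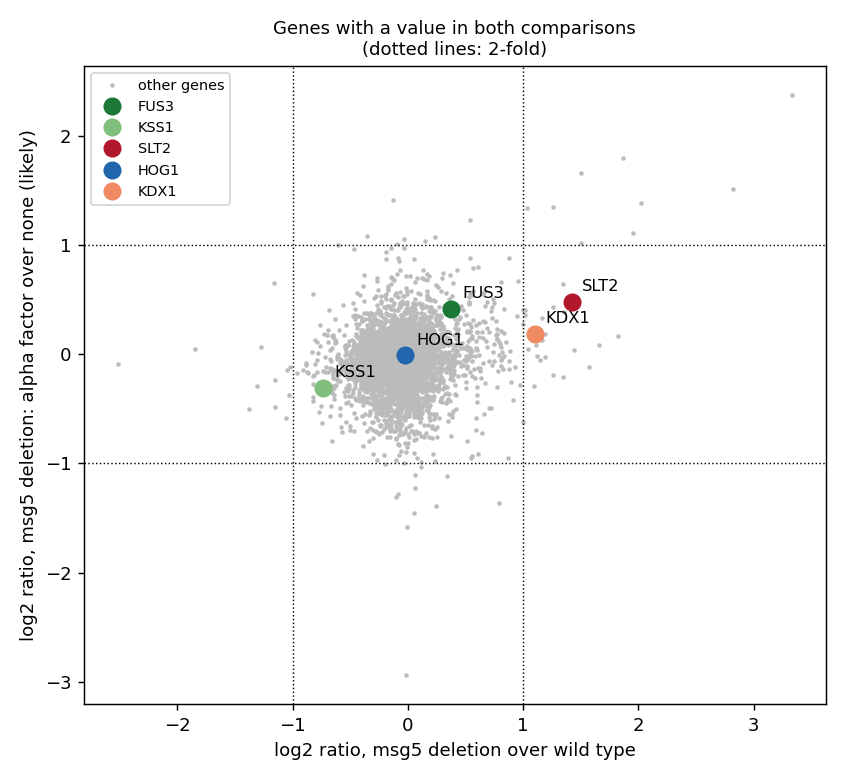
Each grey point is 1 of 4378 genes with both values. The x axis is the log2 ratio of the msg5 deletion over wild type. The y axis is that of alpha factor over none in the deletion strain. Large points are KDX1 and the MAP kinase genes with both values. SLT2 and KDX1 lie to the right with few genes around them, KSS1 lies to the left, and HOG1 lies in the dense middle.

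Neither SLT2 nor KDX1 had a neighbour on its chromosome near its own value in the deletion. Of the 24 annotated protein-coding genes within 2 places of the 6 members, 20 were measured in the deletion and 14 with alpha factor, and none reached 2-fold. In the deletion they ran from -0.56 to 0.51 with a median of -0.09. YHI9 (-0.56) and RRM3 (-0.52), on either side of SLT2, were the lowest. PIR3 (0.51), of a wall protein and on the wall list, was the highest and lies 2 places from KDX1, while YKL162C (-0.06) and ELF1 (-0.21) lie directly beside KDX1. The measured neighbour directly beside KSS1, BUD9, had -0.24. With alpha factor the neighbours ran from -0.32, for ACH1 beside FUS3, to 0.26, for RCN1 near KDX1.

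**Figure D5:**
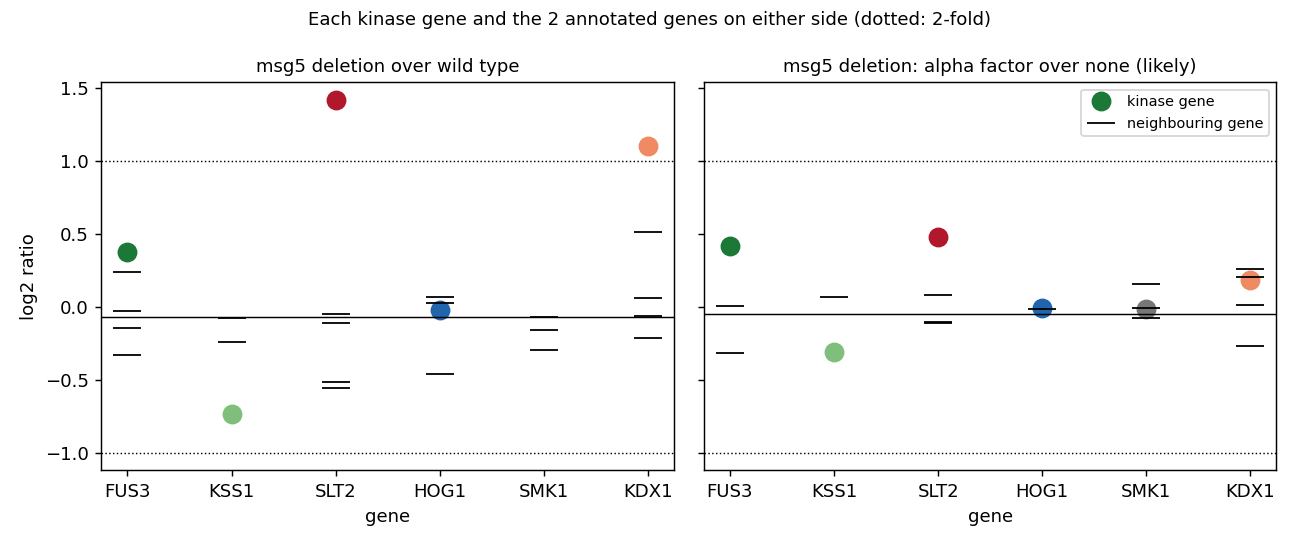
Log2 ratios (y axes) of each MAP kinase gene and KDX1 (large points), for the msg5 deletion over wild type (left) and alpha factor over none (right). Short bars are the measured genes among the 2 annotated on either side of each. SLT2 and KDX1 lie above 1 on the left, with every measured neighbour at 0.51 or lower.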

How the data were processed

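RNA of the msg5 deletion strain, with or without alpha factor, and of wild type was measured on two-colour arrays. Per the labels, scans were segmented with GenePix Pro 5.0, and 4 arrays per comparison were condensed by the authors into 1 deposited log2 ratio per feature. The sources used here do not give the normalization, the filters or the genome build. The log2 scale rests on the values: all 5310 of the first comparison (100%) were base 2 logarithms of ratios rounded to 0.001. With alpha factor, a grid of ratios rounded to 0.0001 held 79.1% of the 705 values below -0.3 at base 2, against 54.9% for shifted values, 70.6% against 68.9% for natural logarithms and 81.8% against 82.4% for base 10.

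Of 6207 gene features, 5654 were named by locus tag and 57 by an older name from the R64 RefSeq gene table, and 496 had no symbol. Features of a gene were averaged with Python 3.11.15 and pandas 2.3.3. Genes past 2-fold were counted. With 1 value per gene and comparison, no test was run, and precision is limited by how few arrays there were. From gene lists, every MAPKKK, MAPKK and MAP kinase phosphatase was named. Of the other lists, only some of the genes past 2-fold or among the 2 farthest from 0 were named. PRM2 was named as the lowest mating gene with alpha factor. TEC1, STE12, PKC1, GPA1, PTP2, the wall cascade genes past 1.5-fold, IME1 and the cell type markers were named for their role. The members and lists were chosen with earlier results of these data known.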

Additional observations from a re-analysis of the deposited data

How the results depend on the processing

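Of 208 recomputed values, 196 moved by less than the standard deviation between features of 1 gene, or for counts by no more than 1.5 times. Much of this was fixed in advance. Centring (50 values) shifts log ratios by no more than the medians of all genes, -0.07 and -0.05, which are smaller than that standard deviation. Taking the first feature (50 values) cannot move a member, as each has 1 feature. Centring on the median of all genes, subtracting the running median of neighbouring rows, or taking the first feature of a gene moved no member by more than 0.13, the value reached by KSS1 with alpha factor, which went to -0.18 after the running median. At 1.5-fold 3 members were counted in the deletion, KSS1 being the one added to the 2, and 0 with alpha factor. Reading the alpha factor values as natural logarithms left the count at 2-fold there at 0 but gave 2 members at 1.5-fold, an alternative chosen after seeing the data. If the alpha factor ratios run the other way, FUS3 had -0.42, KSS1 0.31, SLT2 -0.48 and KDX1 -0.18. The deletion value less the alpha factor value was then 0.79 for FUS3, -1.04 for KSS1, 1.90 for SLT2 and 1.29 for KDX1. The mean in place of the median gave -0.20 for the MAP kinase phosphatases in the deletion, a list that holds MSG5, and 1.12 and 0.85 for the 9 genes of the direction check in the deletion and with alpha factor, lists that hold FIG1. No paired analysis was possible because each comparison has 1 condensed value, and for the same reason no array or culture was left out in turn. Signal over background was not used, so dim features could not be told from bright ones.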
